A study of Mus musculus with 2 samples.

Results

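The nuclei described here are 132 Cyp2b10-positive nuclei of a regenerating Cox10-/- mouse liver, set against 634 Cyp2b10-negative nuclei of the same library. They were chosen by a readout. A nucleus entered when it held at least 2000 unique molecular identifiers (UMIs, 1 per captured RNA molecule) and when Cps1, a urea cycle enzyme abundant in hepatocytes, made up 0.5% or more of them. A nucleus counted as positive when at least 1 UMI came from Cyp2b10 and as negative when none did. These limits kept 766 of the 5167 nuclei of the Cox10-/- library and of the 10615 nuclei of the series.

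The series holds 2 single-nucleus RNA libraries, each from 1 liver, 1 labelled wild-type and 1 labelled Cox10-/-. Mice carrying a floxed Cox10 allele were given a single dose of an adeno-associated virus of serotype 8 coding for GFP or for Cre, 4 weeks before a 70% partial hepatectomy, and were kept on standard chow with no drug named. The sources used here do not name the virus each liver received, the promoter driving Cre or the floxed exon. One label field places collection 4 days after surgery and another 4 weeks after it. Both sets of nuclei share animal, virus, surgery and library, so nuclei are not replicates. Wild-type levels come from another library and are given for reference with no test. No p-value is given, and intervals are 95% counting intervals that leave out the spread between nuclei and between animals. The Cox10-/- library held 14476400 UMIs with a median of 2291 per nucleus, and the wild-type library 17703804 with a median of 2853.5. The libraries shared 7 cell barcodes, 1 of them among the 766 nuclei.

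Cyp2b10 encodes a cytochrome P450 of drug oxidation and is the best known target of the constitutive androstane receptor (CAR, gene Nr1i3) in mouse liver. Activated CAR pairs with the retinoid X receptor and binds repeated half-sites in enhancers of P450, transferase and transporter genes. Hepatocytes along the liver lobule differ in function: periportal cells, where blood enters, carry much of urea synthesis, amino acid breakdown and gluconeogenesis, whereas pericentral cells, next to the draining vein, carry glutamine synthesis and much P450 activity. Drug induction of Cyp2b10 is classically strongest in pericentral cells. Cox10 makes an intermediate of heme A, the cofactor of respiratory complex IV.

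Cyp2b10 lies at chr7:25897620-25926624 on the plus strand (mm10, ENSMUSG00000030483.14). The 250 bases upstream of the RefSeq start (GRCm38.p6) are shown for Cyp2b10, for its paralog Cyp2b9 on the same chromosome and for Cyp3a11, another drug-metabolism P450. Levels of Cyp3a11 are given below, whereas UMIs of the other Cyp2b genes were too few to compare. Capitals mark the nuclear receptor half-site AGGTCA, searched on both strands. The windows are chr7:25897408-25897657 (plus), chr7:26173159-26173408 (plus) and chr5:145879855-145880104 (minus).
Cyp2b10: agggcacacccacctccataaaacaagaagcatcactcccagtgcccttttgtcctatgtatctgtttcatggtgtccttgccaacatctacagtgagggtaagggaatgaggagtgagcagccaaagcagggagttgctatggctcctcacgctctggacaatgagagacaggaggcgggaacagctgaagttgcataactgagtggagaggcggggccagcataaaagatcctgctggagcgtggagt
Cyp2b9: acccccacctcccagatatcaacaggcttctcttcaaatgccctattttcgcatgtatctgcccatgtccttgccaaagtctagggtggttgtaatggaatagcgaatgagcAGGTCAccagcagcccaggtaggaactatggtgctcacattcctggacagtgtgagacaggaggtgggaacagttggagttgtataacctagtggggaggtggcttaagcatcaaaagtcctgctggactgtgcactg
Cyp3a11: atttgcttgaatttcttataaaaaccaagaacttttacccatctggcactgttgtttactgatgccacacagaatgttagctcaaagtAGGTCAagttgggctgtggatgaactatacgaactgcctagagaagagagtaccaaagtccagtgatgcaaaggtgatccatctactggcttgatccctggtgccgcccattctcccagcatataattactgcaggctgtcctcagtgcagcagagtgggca
The Cyp2b10 window held no AGGTCA, whereas those of Cyp2b9 and Cyp3a11 held 1 each, 138 and 162 bases upstream of the start. The same 6 letters occurred in 14.0% of 32851 such windows, so a match is common and describes the letters alone.

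Cyp2b10 was found in 17.2% of the 766 nuclei (exact Clopper-Pearson interval, 14.6 to 20.1%). Of the positive nuclei, 77 held 1 Cyp2b10 UMI, 26 held 2 and 29 held 3 or more, with a maximum of 15. The 29 nuclei with 3 or more carried 51.9% of the 268 Cyp2b10 UMIs. Detection ran from single molecules to a small number of nuclei with many.

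The share was far lower elsewhere. In Cox10-/- nuclei under the Cps1 limit, 66 of 2413 (2.74%) held a Cyp2b10 UMI at a median of 2770 UMIs per nucleus, against a median of 4751 in the 766 nuclei. In wild-type nuclei above the limit, 3 of 3774 did (0.0795%). Thinned to 2000 UMIs per nucleus, the shares were 9.14% above the Cps1 limit, 1.74% under it and 0.0265% in wild-type nuclei above it. The summed level of Cyp2b10 was 65.0 CPM (UMIs scaled to a total of 1000000; 57.5 to 73.3) above the limit, 9.07 CPM under it and 0.213 CPM in wild-type nuclei. Nuclei under the limit were not sorted by cell type and also carried hepatocyte markers, so their share is no measure of free RNA in droplets alone, which was not estimated.

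Both limits of the rule cut through a continuum. Among nuclei just under the Cps1 limit (0.4 to 0.5%), 4 of 66 held Cyp2b10, and among those just over it (0.5 to 0.6%), 14 of 79 did. Positive nuclei were deeper, with a median of 5816.5 UMIs (2000 to 15767) against 4586.5 (2007 to 15971) in negative nuclei, and had a median of 2445 genes against 2115. The positive share was 29.2% in the deepest of 5 equal groups of nuclei and 11.1 to 17.6% in the others. Every nucleus was therefore thinned at random to 2000 UMIs before levels were compared, which left 70 positive nuclei with a Cyp2b10 UMI while all 132 kept their label. Some of the 634 negative nuclei may hold Cyp2b10 RNA that was not sampled.

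Both sets carried hepatocyte markers at like levels. The hepatocyte markers measured (9 genes) took a median of 2.35% of UMIs in positive and 2.48% in negative nuclei, beside 2.10% under the Cps1 limit, so nuclei under the limit held hepatocyte RNA too. Endothelial, myeloid and lymphoid markers had medians of 0% in both sets. Stellate cell and fibroblast markers took 0.0192% and 0.0197%, with maxima of 0.128% and 1.42%. Mitochondrially encoded UMIs took a median of 3.31% and 3.85%. The targeted gene Cox10 was at 49.3 CPM in positive nuclei (26.2 to 84.2) and 45.0 CPM in negative nuclei (34.1 to 58.2), and a 3' tag need not report the floxed exon.

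Zone differed between the sets. Nuclei entered by Cps1, a gene of the urea cycle, which is largely periportal, so the limit may have left out pericentral nuclei. That effect was not tested, and 22 of the nuclei kept had a pericentral share of 60% or more. Each nucleus was placed by the pericentral share of its zone UMIs, that is, UMIs of 24 pericentral genes over those of the pericentral and 24 periportal genes together. The median pericentral share was 13.3% in positive nuclei (10th to 90th percentile, 3.85 to 38.5%), 19.1% in negative nuclei (6.82 to 44.2%) and 9.52% in the 29 nuclei with 3 or more Cyp2b10 UMIs. The distributions overlapped widely, with positive nuclei present from 0 to 62.7%. When the nuclei were cut into 3 equal groups on this scale, a Cyp2b10 UMI was found after thinning in 34 of 256 nuclei of the periportal group (13.3%, 9.38 to 18.1%), in 7.45% of the middle group and in 17 of 255 of the pericentral group (6.67%, 3.93 to 10.5%). The thinned intervals of the periportal and pericentral groups overlapped slightly. Without thinning the shares were 25.4, 14.9 and 11.4%, at median depths of 5437.5, 4414 and 4254 UMIs.

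The highest share was found at the periportal end. Among the 58 nuclei with a pericentral share of 0 to 5%, 22 were positive (37.9%, 25.5 to 51.6%), and 27.6% (16.7 to 40.9%) were after thinning. At a share of 30 to 40% the values were 9.09% and 4.04% (1.11 to 10.0%) of 99 nuclei. Between 5 and 60% the thinned intervals overlapped one another, and the group at 40 to 60% stood at 10.5%. The thinned interval at 0 to 5% also overlapped those at 5 to 10%, 40 to 60% and 60 to 100%. Detection thus did not fall evenly along the scale.

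**Figure D1:**
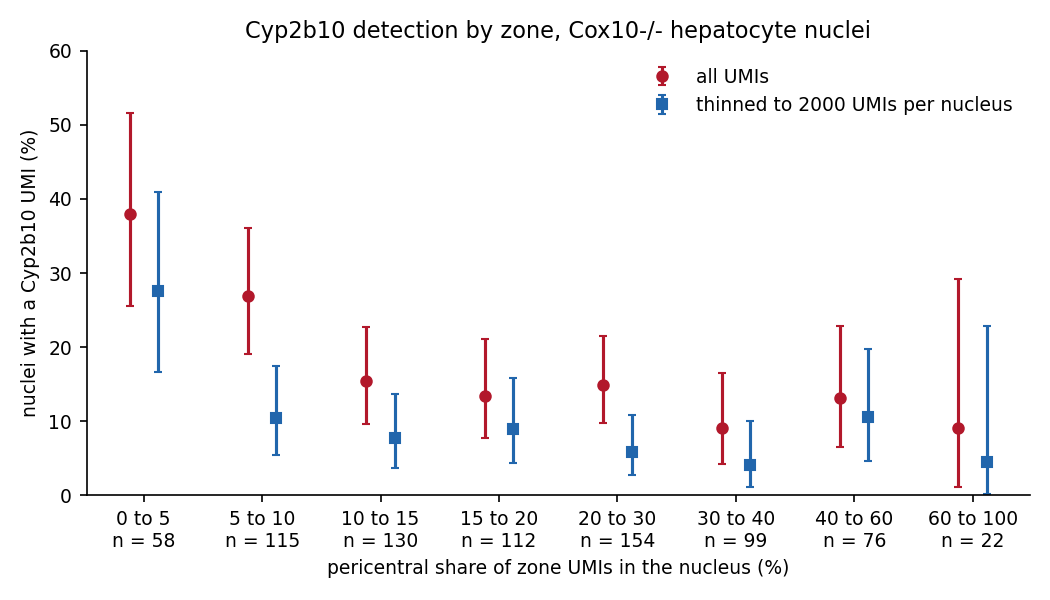
Share of Cox10-/- hepatocyte nuclei with a Cyp2b10 UMI (vertical axis, percent) by the pericentral share of zone UMIs in the nucleus (horizontal axis, percent, with the number of nuclei); circles use all UMIs, squares nuclei thinned to 2000 UMIs, and bars are 95% Clopper-Pearson intervals. The nuclei at 0 to 5% stand at 37.9% and 27.6%, above the points of the remaining groups, with bars that overlap some of theirs.

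The zone genes that placed the nuclei are described next by their levels, which restate the difference in pericentral share and are no separate support for it. The periportal list summed to 20160 CPM in positive and 17570 CPM in negative nuclei, a ratio of 1.15 (1.11 to 1.18), and to 1.14 times without Slc7a2, its largest member. A list's sum runs over all its members in the table, and its counts over the measured members, those with at least 30 UMIs over both sets. Of its 22 measured members, 21 had a ratio above 1, where 45.8% of all 5872 such genes did, and 2 were past 1.5-fold higher with none past 1.5-fold lower. Across all 5872 genes, 5.86% were past 1.5-fold higher and 11.8% past 1.5-fold lower, so the share past 1.5-fold was close to that background and the shift was one of small size in many members. The median log2 ratio was 0.26 for the list and -0.03 for all genes.

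Gldc, the decarboxylase of the glycine cleavage system, stood highest among periportal genes. It was at 500 CPM in positive nuclei (419 to 593) and 289 CPM in negative nuclei (260 to 320), a ratio of 1.73 (1.41 to 2.12). With all UMIs the ratio was 1.56 (1.38 to 1.75), and 72.0% of positive against 59.0% of negative nuclei held a Gldc UMI. Etnppl, which breaks down phosphoethanolamine, was at 621 against 454 CPM, and Sds, a serine dehydratase feeding gluconeogenesis, at 1046 against 809 CPM. Their ratios were 1.37 (1.14 to 1.63) and 1.29 (1.13 to 1.48). Among genes of nitrogen handling, the arginine transporter gene Slc7a2 had a ratio of 1.15 (1.10 to 1.21), and the urea cycle genes Arg1 and Asl had 1.21 each, with intervals above 1. Pigr, the polymeric immunoglobulin receptor, was the member with a ratio below 1, at 0.86 (0.68 to 1.08).

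The pericentral list summed to 4096 CPM in positive and 4886 CPM in negative nuclei, a ratio of 0.84 (0.79 to 0.89). Of its 16 measured members, 4 were past 1.5-fold lower and 1 past 1.5-fold higher, and the median log2 ratio was -0.17. The background of all genes was 11.8% past 1.5-fold lower and 5.86% past 1.5-fold higher. A ratio below 1 was found in 10 of the 16 and above 1 in 6, where 54.2% of all 5872 genes were below 1. Cyp2e1, the ethanol-oxidising P450, was at 1016 CPM (898 to 1145) against 1574 CPM (1506 to 1645), a ratio of 0.65 (0.57 to 0.73). Without Cyp2e1 the ratio of the list was 0.93, so this gene made up much of the difference. Gulo, the last enzyme of vitamin C synthesis, was at 114 against 188 CPM with a ratio of 0.61 (0.40 to 0.89). Cyp1a2, which oxidises caffeine and related compounds, was at 83.4 against 133 CPM with a ratio of 0.63 (0.38 to 0.98).

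Slc1a2, a glutamate transporter gene of the innermost pericentral cells, went the other way. It was at 273 CPM in positive and 158 CPM in negative nuclei, a ratio of 1.73 (1.30 to 2.28). Its UMIs lay in 12 of the 132 positive and 49 of the 634 negative nuclei, up to 16 in 1 nucleus. The level was 409 CPM in nuclei with 1 Cyp2b10 UMI, 19.2 CPM with 2 and 138 CPM with 3 or more, so the excess came from nuclei with a single Cyp2b10 UMI. Glul, the glutamine synthetase gene, was also higher in positive nuclei, at 212 CPM (160 to 276) against 175 CPM (153 to 200), with overlapping intervals. With all UMIs the Glul ratio was 1.41 (1.21 to 1.65), and Glul kept its direction in 18 of 18 alternatives. The 12 Wnt target genes, which mark the same inner layer and include Slc1a2, summed to a ratio of 1.09 (0.95 to 1.26), and of the 6 with at least 30 UMIs 1 was past 1.5-fold higher and 1 lower. Across all 5872 genes the shares were 5.86% higher and 11.8% lower.

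Levels followed the number of Cyp2b10 UMIs for several of these genes. Gldc was at 289, 344, 693 and 742 CPM in nuclei with 0, 1, 2 and 3 or more Cyp2b10 UMIs. Cyp2e1 was at 1574, 1208, 712 and 776 CPM in the same order. The periportal list stood at 17570, 18700, 22160 and 22240 CPM, and the pericentral list at 4886, 5014, 2713 and 2898 CPM. In nuclei with a single UMI the intervals of Gldc (258 to 450) and of the pericentral list (4667 to 5381) overlapped those of negative nuclei. The periportal list (18020 to 19390) was already above the negative nuclei (17340 to 17800), and Cyp2e1 (1041 to 1395) was already below them. Median depth was 4586.5, 5298, 5168.5 and 7326 UMIs.

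**Figure D2:**
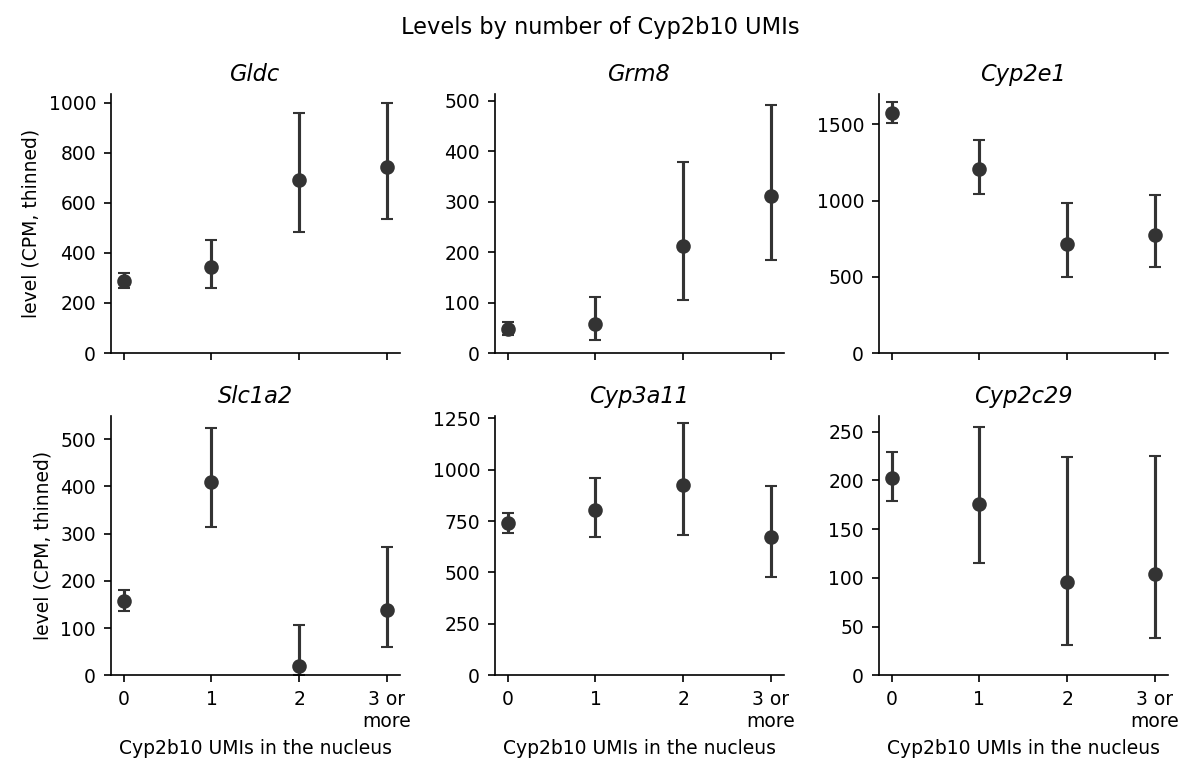
Levels of 6 genes (vertical axes, CPM in nuclei thinned to 2000 UMIs, each axis from 0) in nuclei with 0, 1, 2 and 3 or more Cyp2b10 UMIs (horizontal axis); points are summed levels and bars 95% Poisson intervals. Gldc goes from 289 to 742 CPM and Grm8 from 47.3 to 311 CPM, Cyp2e1 goes from 1574 to 776 CPM, Slc1a2 peaks at 409 CPM with 1 UMI, and the intervals of Cyp3a11 overlap throughout.

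Read the other way, detection of Cyp2b10 varied with these genes. Of nuclei with 3 or more Gldc UMIs after thinning, 19 of 46 were positive (41.3%, 27.0 to 56.8%), against 14.6% of those with none. Of nuclei with no Cyp2e1 UMI, 29.8% were positive (21.8 to 38.7%), against 11.4% (8.37 to 15.2%) of those with 3 or more. The nuclei without Cyp2e1 were deeper, with a median of 5852 against 4280 UMIs, and with Cyp2b10 thinned as well the shares were 15.7 and 5.45%.

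Grm8, a metabotropic glutamate receptor gene on no zone list, led the genes higher in positive nuclei. It was at 144 CPM (102 to 198) against 47.3 CPM (36.1 to 60.9), a ratio of 3.04 (1.97 to 4.64), and 3.11 (2.42 to 4.00) with all UMIs. With all UMIs, 33 of 132 positive and 59 of 634 negative nuclei held Grm8. Wild-type nuclei above the Cps1 limit stood at 240 CPM, higher than both sets, and nuclei under the limit at 78.3 CPM. By number of Cyp2b10 UMIs the level was 47.3, 58.5, 212 and 311 CPM. Of the 59 nuclei with a Grm8 UMI after thinning, 21 were positive (35.6%, 23.6 to 49.1%), against 15.7% of the rest.

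Grm8 also varied with zone. In negative nuclei it was at 105 CPM in the periportal group, 39.2 CPM in the middle and 6.64 CPM in the pericentral group. Within the periportal group alone, positive nuclei stood at 277 CPM (194 to 384), above negative nuclei at 105 CPM (74.8 to 143). In the middle group positive nuclei stood at 26.3 CPM (3.19 to 95.1), and in the pericentral group no UMI was found in the 29 positive nuclei, which allows up to 63.6 CPM. A higher level in positive nuclei was thus not seen in those groups. Gldc, which helped to set the groups, showed the same within the periportal group, at 754 (612 to 919) against 495 CPM (427 to 571). Its levels in the pericentral group were 86.2 and 88.5 CPM. Cyp2e1 was at 354 (259 to 472) against 581 CPM (507 to 663) in the periportal group and at 1369 against 1378 CPM in the middle group. The higher Gldc and Grm8 and lower Cyp2e1 of positive nuclei were thus present inside the periportal group. Cyp2e1 also helped to set the groups, and the pericentral share still varied within them. The Gldc and Cyp2e1 values are therefore no support separate from zone. Grm8 did not set the groups but varied along the same scale, and whether its difference was separate from zone was not tested.

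The other genes highest by the naming rule spanned many functions. Cryl1, a sugar acid dehydrogenase gene, was at 133 against 52.0 CPM, a ratio of 2.55 (1.64 to 3.90), and 1.87 (1.43 to 2.42) with all UMIs. It too was a periportal gene here, at 105 CPM in periportal and 11.1 CPM in pericentral negative nuclei. Nrg4, which codes for the secreted ErbB ligand neuregulin 4, was at 1307 against 929 CPM, a ratio of 1.41 (1.24 to 1.59) that was 1.18 (1.10 to 1.27) with all UMIs. In wild-type nuclei Nrg4 was at 332 CPM, under both sets.

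Tle4, a co-repressor gene, was at 220 against 125 CPM and Trim28, whose product silences chromatin through zinc finger proteins, at 243 against 139 CPM. Both ratios were 1.75, with intervals from 1.27 to 2.38 and from 1.29 to 2.34. Cyp4v3, a fatty acid omega-hydroxylase gene, had 1.54 (1.22 to 1.93), Carmil1, an actin regulator gene, 1.52 (1.22 to 1.87), and Rnf13, a ubiquitin ligase gene, 1.73 (1.29 to 2.28). With all UMIs the ratios were smaller, at 1.67 for Tle4, 1.49 for Trim28, 1.32 for Cyp4v3, 1.15 for Carmil1 and 1.33 for Rnf13. Lrig3, a membrane protein gene, had 2.58 (1.46 to 4.43), and 1.51 with all UMIs. Gtf2a1, Lpl, Nae1 and Cep57 had between 37 and 65 UMIs in all and ratios of 2.46 to 2.65, but with all UMIs their intervals held 1, and Lpl, Nae1 and Cep57 turned below 1 under another depth or Cps1 limit. Of the 15 genes, 11 kept an interval above 1 with all UMIs and 6 stayed past 1.5-fold.

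**Figure D3:**
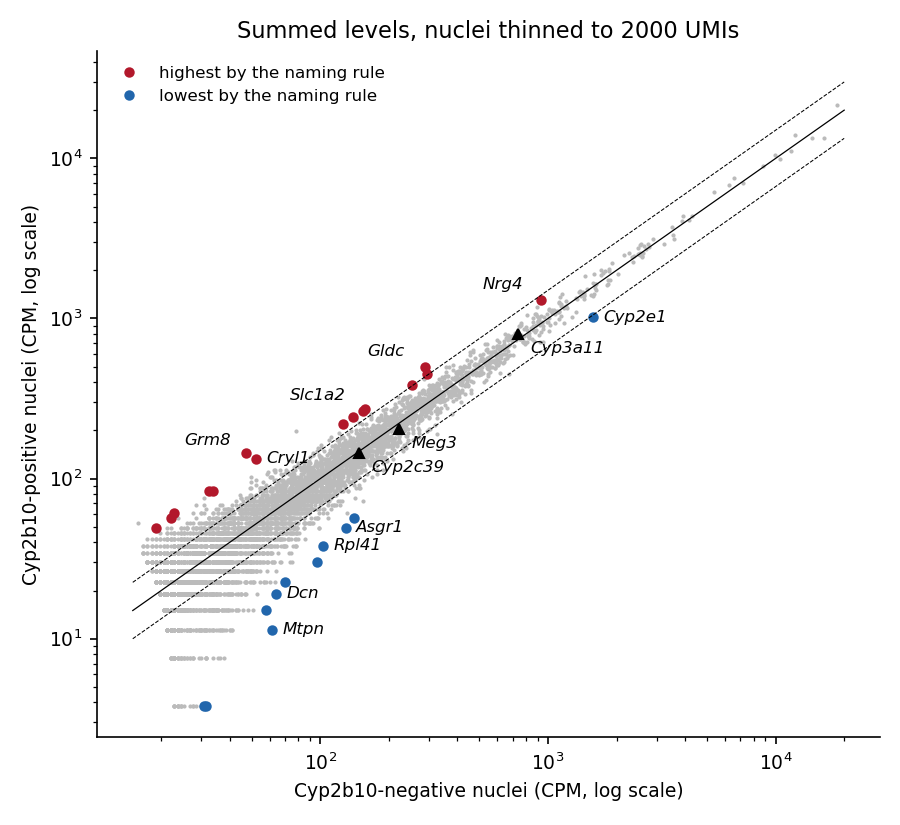
Summed level of each of the genes with at least 30 UMIs in positive (vertical axis) against negative nuclei (horizontal axis), in CPM on log scales after thinning to 2000 UMIs; genes with no UMI in positive nuclei are left off, the solid line is equality and dashed lines 1.5-fold. Circles are the genes highest and lowest by the naming rule and triangles mark Cyp3a11, Cyp2c39 and Meg3, which lie near equality.

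Drug-metabolism genes as a group showed no matching difference in sums that were not adjusted for zone, which differed between the sets. The CAR target list summed to 9719 CPM in positive and 9778 CPM in negative nuclei, a ratio of 0.99 (0.95 to 1.04). Of its 17 measured members, none was past 1.5-fold higher and 2, Aldh1a7 and Cyp1a2, were past 1.5-fold lower, against the background of 5.86% higher and 11.8% lower. The same background applies to the counts of the other drug-metabolism lists below. The summed level was 9778, 9716, 9600 and 9834 CPM with 0, 1, 2 and 3 or more Cyp2b10 UMIs. Both sets stood above wild-type nuclei, at 5378 CPM. Much of the sum was Fmo5, a flavin monooxygenase gene, at 4350 against 3901 CPM (ratio 1.12, 1.05 to 1.19), and without it the ratio of the list was 0.91. The list moved to 1.16 with Cps1 at 0.25% or more. With negative nuclei weighted to the zone of the positive ones, the list turned above 1 but stayed inside its main interval.

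The Cyp3a genes, which oxidise many drugs and steroids, gave a ratio of 0.98 (0.89 to 1.08) with none of 3 past 1.5-fold. Cyp3a11 was at 800 CPM (695 to 915) against 741 CPM (694 to 790), and at 44.8 CPM in wild-type nuclei. Nuclei under the Cps1 limit stood at 729 CPM, and the source of that RNA was not tested. Cyp3a25 was at 826 against 934 CPM, with a ratio of 0.88 (0.76 to 1.02).

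The Cyp2c family summed to 872 CPM in positive and 983 CPM in negative nuclei, a ratio of 0.89 (0.77 to 1.02), with none of 10 past 1.5-fold higher and 1 lower. Cyp2c29 was at 144 against 203 CPM, a ratio of 0.71 (0.49 to 1.002), and 0.69 (0.55 to 0.85) with all UMIs. Cyp2c39, named because earlier results of these data had shown it high in this library, was at 144 CPM (102 to 198) against 148 CPM (127 to 170), and at 1.86 CPM in wild-type nuclei. Its ratio was 0.98 (0.67 to 1.39). Of 147 nuclei with a Cyp2c39 UMI after thinning 22 were Cyp2b10-positive, against 110 of 619 without. Reads of near-identical Cyp2b or Cyp2c copies may have been split or dropped when the authors counted, so single members are uncertain.

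Cyp2c39 varied with zone. It was at 15.4 CPM in positive and 20.9 CPM in negative nuclei of the periportal group, at 184 (101 to 309) and 76.0 CPM (52.3 to 107) in the middle group, and at 379 (238 to 575) and 323 CPM (273 to 380) in the pericentral group. Cyp2b10 was thus more often found at the end of the lobule scale where Cyp2c39 was low. The other Cyp2b genes gave 7 UMIs in positive and 22 in negative nuclei, too few to compare. The P450 genes of the remaining Cyp1 and Cyp2 families gave 0.78 (0.72 to 0.84), with none of 11 past 1.5-fold higher and 3 lower, among them Cyp2e1 and Cyp2j5, an arachidonic acid epoxygenase gene at 190 against 326 CPM. The Cyp2j5 difference vanished (log2 0.04) when Cps1 had to reach 1%.

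Genes that act on or beside the P450s were level or slightly lower. Nr1i3, which codes for CAR itself, was at 163 CPM (118 to 220) against 196 CPM (172 to 222), and Por, the reductase that feeds electrons to P450s, was at 1099 against 1327 CPM with a ratio of 0.83 (0.73 to 0.94). The list of xenobiotic receptors and electron donors gave 0.94 (0.88 to 1.001), with none of 11 past 1.5-fold higher and 1 lower. Conjugation and hydrolysis genes gave 1.03 (0.98 to 1.07), with 1 of 34 past 1.5-fold in each direction. Drug and bile acid transporters gave 0.90 (0.85 to 0.96), with none of 12 higher and 1 lower, and Abcc2, which exports conjugates into bile, was at 1637 against 1838 CPM.

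The imprinted noncoding RNA Meg3 was at 205 CPM (154 to 267) in positive and 221 CPM (196 to 248) in negative nuclei, beside 0.398 CPM in wild-type nuclei. With all UMIs its ratio was 0.60 (0.49 to 0.74), and few nuclei carried it, 17 of 132 positive and 95 of 634 negative nuclei. In the pericentral group positive nuclei stood at 897 CPM (670 to 1176) and negative nuclei at 493 CPM (431 to 563), and Slc1a2 stood at 1173 (911 to 1487) and 420 CPM (363 to 485). These values rest on few nuclei: of the 132 positive nuclei, 11 held a Meg3 UMI after thinning, up to 15 in 1 nucleus, and 12 held Slc1a2, up to 16. Their counting intervals leave out the spread between nuclei. The few Cyp2b10-positive nuclei of the pericentral group thus carried much of the Meg3 and Slc1a2 RNA of all positive nuclei, 52 of 54 and 68 of 72 UMIs. This was not particular to positive nuclei. Among negative nuclei the pericentral group held 223 of 280 Meg3 and 190 of 200 Slc1a2 UMIs. Slc1a2 is on the pericentral list and helped to set the groups, so its place there is no separate result.

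**Figure D4:**
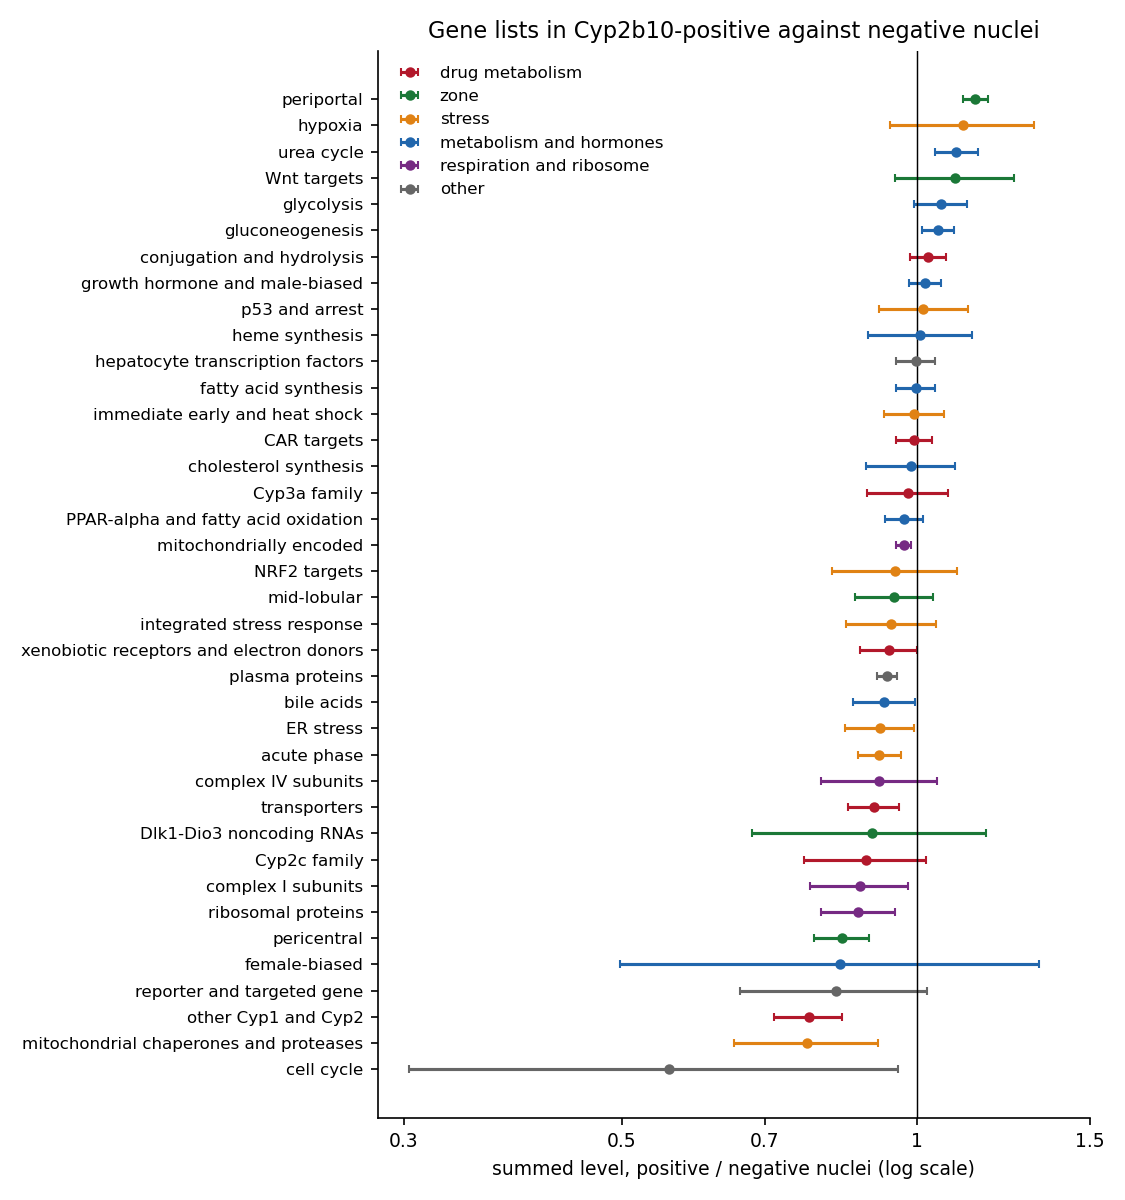
Ratio of the summed level in positive over negative nuclei (horizontal axis, log scale) for gene lists with at least 100 UMIs. Lists of cell type markers are left off. Points are ratios, bars 95% counting intervals and colours the kind of list. The periportal list lies at 1.15 and the pericentral list at 0.84, whereas the CAR targets lie at 0.99.

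No stress list stood clearly higher in positive nuclei. The member counts of the stress lists stand beside 5.86% of all 5872 genes past 1.5-fold higher and 11.8% past 1.5-fold lower. The integrated stress response list, genes turned on by ATF4 and its relatives when translation or mitochondria are disturbed, gave 0.94 (0.85 to 1.05), with none of 9 past 1.5-fold higher and 2 lower. Atf3, a transcription factor gene of this response, was at 133 CPM (92.4 to 184) against 209 CPM (185 to 236), a ratio of 0.63 (0.43 to 0.91), and 0.73 (0.61 to 0.88) with all UMIs. Atf3 was slightly higher instead (log2 0.06, 0.04 and 0.13) at a depth limit of 1000 UMIs and with Cps1 limits of 0.25 and 1%. Cth, a transsulfuration enzyme gene, was at 769 against 760 CPM. The summed list was at 1591 CPM in positive, 1691 CPM in negative and 874 CPM in wild-type nuclei, so both sets stood above wild-type nuclei of the other library.

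The p53 and arrest list gave 1.02 (0.91 to 1.13) with none of 6 past 1.5-fold. NRF2 targets of oxidant defence gave 0.95 (0.82 to 1.10) with 1 of 8 lower, and ER stress genes 0.92 (0.84 to 0.99) with none of 13 past 1.5-fold. Immediate early and heat shock genes gave 0.99 (0.93 to 1.07), with none of 11 higher and 1 lower. Acute phase genes gave 0.92 (0.87 to 0.96), with 1 of 17 lower. Hypoxia genes gave 1.11 (0.94 to 1.32), with 1 of 6 past 1.5-fold higher. Hpx, the heme scavenger hemopexin, had a ratio of 0.80, at 944 against 1180 CPM.

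Mitochondrial chaperones and proteases were the stress list farthest from 1, at 0.77 (0.65 to 0.91), with 1 of 11 past 1.5-fold higher and 2 lower. Hspa9, the mitochondrial Hsp70, was at 133 against 193 CPM, a ratio of 0.69 (0.47 to 0.98). The summed list was at 800, 708, 558 and 431 CPM with 0, 1, 2 and 3 or more Cyp2b10 UMIs. Mitochondrially encoded RNA was at 54310, 63750, 43170 and 31550 CPM in the same order, and its part in these levels by UMI number was not tested. The ratio of the chaperone and protease list stayed below 1 in 18 of 18 alternatives (0.74 to 0.997). The removal of mitochondrially encoded genes was among them.

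Some of the lowest genes were far higher in nuclei under the Cps1 limit, which include other cell types. Sntg1 had no UMI in positive nuclei after thinning and 67 in negative nuclei, and was at 1622 CPM in nuclei under the Cps1 limit. Dcn, the fibroblast and stellate cell proteoglycan decorin, was at 18.9 against 63.9 CPM, and at 868 CPM under the limit. The stellate and fibroblast list gave 0.65 (0.49 to 0.86), and 1.06 once the tenth of nuclei with the most other-cell markers was left out. With all UMIs, 5 of 132 positive and 33 of 634 negative nuclei held Sntg1.

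Asgr1, a subunit of the hepatocyte asialoglycoprotein receptor, was at 49.3 against 129 CPM, a ratio of 0.38 (0.20 to 0.67) that was 0.69 (0.52 to 0.90) with all UMIs. Rpl41, a ribosomal protein gene, was at 37.9 against 102 CPM and Mtpn, which codes for the actin-capping regulator myotrophin, at 11.4 against 61.5 CPM. With all UMIs their ratios were 0.47 (0.32 to 0.67) and 0.53 (0.32 to 0.85). Zc3h7a, Stam and Nap1l1 also kept intervals below 1, whereas those of Man1b1, Slc12a9, Kalrn, Klhl5 and Flvcr2 held 1 with all UMIs. Kalrn and Klhl5 were also higher under the Cps1 limit, at 343 and 119 CPM, than in negative nuclei, at 96.2 and 31.6 CPM. Man1b1, Slc12a9, Kalrn, Flvcr2 and Nap1l1 turned above 1 under at least 1 alternative. Of the 15 lowest genes 10 kept an interval below 1.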

How the data were processed

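Raw UMI counts per gene and nucleus, as deposited by the authors with no normalization, were used for both libraries. Cell Ranger 7.0 and the build mm10 are named in the submitters' processing notes. Annotation, intronic reads and the authors' nucleus filter: not given in the sources used here. Per the labels' protocols 7000 nuclei per sample went into a droplet 3' library. The members and all gene lists were chosen with earlier results of these data known. Nuclei were thinned without replacement to 2000 UMIs (seed 1) and summed, with Cyp2b10 left out of totals. Cps1 stayed in the totals, and both genes were left out of the counted genes and the lists. Levels carry exact Poisson, shares Clopper-Pearson and ratios conditional binomial intervals. Log2 ratios used a prior of 0.5 UMI. Called means past 1.5-fold with at least 30 UMIs over both sums. The sums and intervals were tested on simulated data drawn with counting noise alone, which cannot show how they hold under spread between nuclei. No doublets were removed, and leaving out the 4% highest Scrublet scores was an alternative.

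Named genes were the 15 genes farthest from 1 in each direction by the nearer end of their interval, leaving out predicted, mitochondrially encoded and sex-linked genes, plus up to 4 members per list with the interval end farthest from 1. List members past 1.5-fold with an interval holding 1 are counted but mostly not named. Pigr, Cyp2c39, Cyp2b9 and others outside this rule were named after values were seen. One gene that met the rule is not reported here. Symbols of 31424 of 32286 genes matched GENCODE vM21. Python 3.11.15, numpy 2.4.6, scipy 1.17.1, pandas 2.3.3, scanpy 1.11.5 and matplotlib 3.10.9 were used.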

Additional observations from a re-analysis of the deposited data

How the results depend on the processing

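Levels rest on 263906 thinned UMIs in positive and 1268000 in negative nuclei, so low genes depended on the random draw, which the intervals leave out. No alternative was run on another animal. No paired analysis was possible because both sets are nuclei of 1 library and no replicate numbers exist. Gldc, Grm8, Cryl1, Nrg4, Sds, Etnppl, Fmo5, Cyp2e1 and Hspa9 kept their direction in 18 of 18 alternatives that gave a ratio, with log2 ranges of 0.50 to 1.28 for Gldc, 0.72 to 2.47 for Grm8 and -1.001 to -0.27 for Cyp2e1. The periportal list stayed above 1 in all 18 and the pericentral list below 1 in 17, the exception being the weighting by zone, which evens out these genes by construction. The CAR target list ranged from 0.95 to 1.16 and kept its side of 1 in 7. Cyp2c39 and Cyp3a11 kept theirs in 7 and 8. The 3 alternatives chosen after seeing the data were no thinning with depth weights and leaving out nuclei with Sntg1 or with Slc1a2. The main counts were 344 genes higher and 690 lower. For the main counts, some list ratios and the zone shares, values outside the interval of the main value or past 1.5 times a count follow. Among the other results, only values past 1.5-fold that changed direction are given. A further 556 values that moved without such a reversal are not listed. The cause was not tested except where fewer genes or nuclei entered. With another thinning seed, against the main direction stood log2 0.26 for Man1b1, -0.41 for Hadhb and -0.0083 for Dhcr7. Without thinning, the ratio was 1.11 for periportal genes, and 25.4% of the periportal group and 11.4% of the pericentral group were positive. With positive nuclei called after thinning, 585 genes were past 1.5-fold higher and 1046 lower. With negative nuclei weighted to the zone of the positive ones, the ratio was 1.04 for pericentral genes and 1.05 for periportal genes. At a depth limit of 1000 UMIs, 674 genes were past 1.5-fold higher and 1061 lower, the ratio was 0.611 for Cyp2c family, 1.05 for CAR targets and 1.26 for periportal genes, and 7.62% of the periportal group and 2.4% of the pericentral group were positive. Against the main direction stood log2 -0.12 for Lpl, -0.52 for Nae1, 0.24 for Kalrn, 0.25 for Flvcr2, 0.0072 for Cyp2j5, 0.059 for Atf3 and -0.58 for Hadhb. At a depth limit of 3000 UMIs, the ratio was 1.11 for periportal genes, and 19.8% of the periportal group were positive. Against the main direction stood log2 -0.11 for Nae1 and 0.13 for Ndufa6. With Cps1 at 0.25% or more, 542 genes were past 1.5-fold higher and 1679 lower, the ratio was 1.16 for CAR targets, 0.965 for pericentral genes, 1.33 for periportal genes, 1.09 for integrated stress response and 1.14 for the immediate early list, and 3.6% of the pericentral group were positive. Against the main direction stood log2 -0.16 for Nae1, 0.87 for Aldh1a7, 0.044 for Atf3, -0.20 for Dhcr7 and 0.17 for Baat. With Cps1 at 1% or more, the ratio was 0.887 for the immediate early list and 1.03 for the cell cycle list. Against the main direction stood log2 -0.48 for Cep57, 0.51 for Man1b1, 0.14 for Slc12a9, 0.11 for Kalrn, 0.15 for Nap1l1, 0.041 for Cyp2j5, 0.13 for Atf3, 0.24 for Clpx and -1.76 for Dhcr7. With at most 10% mitochondrially encoded UMIs, against the main direction stood log2 0.030 for Aldh1a7. With mitochondrially encoded genes removed, against the main direction stood log2 -0.0081 for Cep57, 0.087 for Nap1l1, 0.14 for Aldh1a7 and 0.24 for Clpx. With 2 or more Cyp2b10 UMIs against 0, 625 genes were past 1.5-fold higher and 1159 lower, the ratio was 0.69 for Cyp2c family, 0.95 for CAR targets, 0.647 for pericentral genes, 1.24 for periportal genes, 0.886 for the immediate early list and 1.02 for the lymphoid list, and 3.06% of the pericentral group were positive. Against the main direction stood log2 -1.11 for Slc1a2, 0.025 for Man1b1, 0.12 for Kalrn, 0.20 for Aldh1a7 and 0.35 for Clpx. Without the nuclei highest in other-cell markers, the ratio was 1.06 for the stellate list. Without the highest doublet scores, against the main direction stood log2 0.34 for Aldh1a7 and -0.038 for Dhcr7. With at least 10 UMIs per gene, 990 genes were past 1.5-fold higher and 1758 lower. With at least 100 UMIs per gene, 46 genes were past 1.5-fold higher and 114 lower. Without thinning but with negative nuclei weighted to the depth of the positive ones, the ratio was 1.11 for periportal genes. Without nuclei holding Sntg1, the ratio was 0.95 for CAR targets and 0.905 for pericentral genes. Against the main direction stood log2 -0.84 for Nae1, 0.27 for Clpx and 0.0060 for Baat. Without nuclei holding Slc1a2, against the main direction stood log2 -0.19 for Nae1.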

Other observations

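Gluconeogenesis genes had a ratio of 1.05 (1.01 to 1.09) in positive over negative nuclei, with none of 9 past 1.5-fold and 7 above 1, and urea cycle genes 1.10 (1.04 to 1.15), with none of 6 past 1.5-fold and 5 above 1. Periportal cells carry much of both pathways, so these ratios are no support separate from zone. The urea cycle ratio was 0.98 with positive nuclei called after thinning. Glycolysis genes gave 1.06 (0.99 to 1.13), with none of 11 past 1.5-fold higher and 1 lower, and fatty acid oxidation genes 0.97 (0.93 to 1.01), with 2 of 24 higher and 3 lower. These counts stand beside 5.86% of all genes past 1.5-fold higher and 11.8% lower. Got1, the cytosolic aspartate aminotransferase, was at 1429 against 1157 CPM, a ratio of 1.24 (1.10 to 1.38), and at 1157, 1137, 1828 and 1846 CPM with 0, 1, 2 and 3 or more Cyp2b10 UMIs. Acly, which makes acetyl-CoA for lipid synthesis, was at 477 against 382 CPM, while the fatty acid synthesis list as a whole stood at 0.997 (0.95 to 1.04). Plasma protein genes gave 0.93 (0.91 to 0.96), with none of 17 past 1.5-fold and 16 below 1, and albumin was at 13340 against 14430 CPM.

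Complex I subunit genes gave 0.87 (0.78 to 0.98), with 4 of 34 past 1.5-fold higher and 11 lower, against 5.86% and 11.8% of all genes. Ribosomal protein genes gave 0.87 (0.80 to 0.95), with 1 of 36 higher and 5 lower, and 1.01 with positive nuclei called after thinning. Complex IV subunit genes gave 0.92 (0.80 to 1.05), kept that side of 1 in 12 of 18 alternatives with values up to 1.14, and were at 1064, 1156, 866 and 587 CPM with 0, 1, 2 and 3 or more Cyp2b10 UMIs, and at 666 CPM in wild-type nuclei. The transcript of the fluorescent reporter Dendra2, found in both libraries, was at 322 against 405 CPM (ratio 0.80, 0.63 to 1.003). Hadhb and Dhcr7 at 90.9 against 52.1 and 53.1 against 26.0 CPM, and Baat, Clpx and Ndufa6 at 37.9 against 78.1, 72.0 against 120 and 18.9 against 52.8 CPM, each changed direction under at least 1 alternative.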
